A study of Caenorhabditis elegans with 8 samples.

Results

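The genes described here are the proneural basic helix-loop-helix (bHLH) genes of Caenorhabditis elegans and hlh-2, the gene of their common partner. They were taken by WormBase symbol from a table of read counts, which gave 7 of 46748 genes: hlh-2, lin-32, cnd-1, ngn-1, hlh-3, hlh-14 and hlh-8. RNA was taken from whole animals of N2, the laboratory wild type, that had eaten bacteria carrying an RNAi feeding plasmid. The plasmid was L4440 without an insert (2 libraries), a plasmid against hlh-2 (3 libraries) or a plasmid against lin-32 (3 libraries). All 8 libraries share the N2 background and the feeding route, and no stage or age is stated for the worms. The study asked how impairing either transcription factor by feeding changes expression across the genome. Since hlh-2 did not follow its label (below), the groups are called by the labels of their libraries, as hlh-2-labelled and lin-32-labelled libraries. Whether the labels of the RNAi groups were exchanged cannot be told from the counts, so which RNAi a contrast stands for rests on the labels alone.

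bHLH proteins bind DNA as dimers, at short sites called E boxes. Class I proteins, or E proteins, are made in many tissues, and HLH-2 is the E protein of the worm. Class II proteins are made in few cells and act mostly as heterodimers with the E protein, and the proneural ones among them give cells a neuronal fate. Feeding RNAi delivers double-stranded RNA, which leads to the loss of the matching transcript, and neurons of N2 are known to respond to it weakly.

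Both targeted genes lay lower in the lin-32-labelled libraries than in the hlh-2-labelled libraries, hlh-2 by 2.28-fold and lin-32 by 3.28-fold. Against the L4440 controls, hlh-2 was 2.24-fold lower in the lin-32-labelled libraries and close to level in the hlh-2-labelled libraries. Neither difference of lin-32 from the controls passed the test. None of the other 5 genes passed in any comparison in the fit of all 8 libraries. The values below are CPM, read counts relative to library size after scaling the libraries to each other, and tests are edgeR quasi-likelihood tests over all 14272 genes that had enough reads, with the p-value adjusted over these genes and a threshold of 0.05. All 7 genes had enough reads to be tested. Errors of log2 fold changes are standard errors (SE), and intervals are 95% intervals from the same fit.

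Total counts per library ran from 22380739 to 34814808, so that 1 CPM stood for 22.1 to 35.4 counts. Replicates differed by more than counting error, with a chi-square per degree of freedom between 5.58 and 16 for each pair. The samples are not said to be separate cultures, so the spread between replicates may be technical. Genes that mark oocytes summed to between 15820 and 16980 CPM in every library (14 genes), and sperm genes to between 7.07 and 9.07 CPM (12 genes). Summed levels of 20 pan-neuronal genes ran from 759 to 762 CPM in L4440, from 763 to 785 CPM in the hlh-2-labelled libraries and from 762 to 787 CPM in the lin-32-labelled libraries. No marker gene of these or of the embryonic, muscle, intestine and epidermis lists was at 0 in all libraries.

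**Figure D1:**
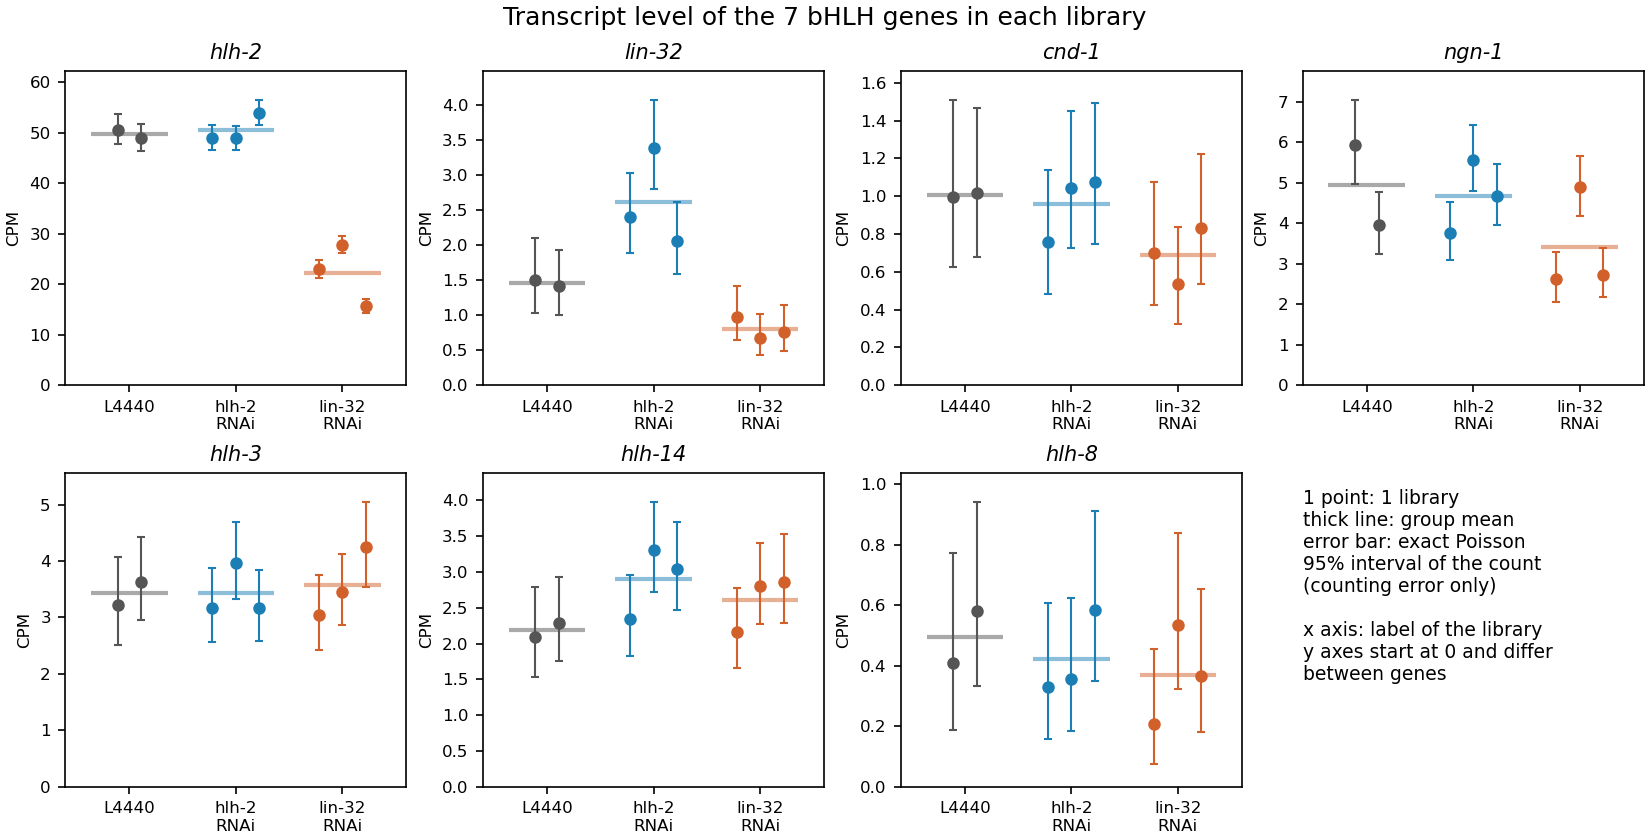
Level of each gene in CPM (y axis, from 0, a separate scale for each gene) in every library, by the label of the library (x axis). Points are libraries, thick lines group means, and error bars exact Poisson 95% intervals of the counts. The 3 hlh-2 values of the lin-32-labelled libraries, 15.6 to 27.8 CPM, lie below all others, and the lin-32 values fall into 3 groups that do not overlap.

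To compare genes with each other, levels were divided by exon length and are given as RPKM (CPM per kilobase of exon, WBcel235 annotation). By this measure hlh-2 stood far above the others, at 23.9 RPKM over the 8 libraries, higher than 66.0% of tested genes. Next came ngn-1 at 5.84 RPKM, hlh-3 at 4.30, hlh-14 at 3.77 and lin-32 at 2.67 RPKM. The ranges of these 4 neighbours over the libraries overlapped, from 3.58 to 8.14 RPKM for ngn-1, from 3.75 to 5.25 for hlh-3, from 3.02 to 4.78 for hlh-14 and from 1.095 to 5.49 for lin-32. The lowest were hlh-8 at 0.479 RPKM (0.238 to 0.663) and cnd-1 at 0.262 RPKM (0.162 to 0.324), whose ranges also overlapped. The order of hlh-8 and cnd-1 rests on exon length, 880 and 3318 bases. In CPM hlh-8 ran from 0.209 to 0.584 and cnd-1 from 0.537 to 1.08. In bulk RNA of whole animals, fewer cells of a type and less RNA per cell cannot be told apart.

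The E protein gene hlh-2 (WBGene00001949) lies on chromosome I of WBcel235, from 7190788 to 7193920 on the minus strand. Its exons form 5 blocks with 1665 bases, and no other annotated gene overlaps it. The L4440 libraries held 1116 and 1349 of its reads, against 1486, 1642 and 1756 in the hlh-2-labelled libraries, and 659, 984 and 469 in the lin-32-labelled libraries. In CPM this was 50.6 and 49.0 in L4440, 49.0, 48.9 and 53.95 in the hlh-2-labelled libraries, and 23.0, 27.8 and 15.6 in the lin-32-labelled libraries. Every lin-32-labelled library was below every other library, while the hlh-2-labelled libraries overlapped the controls.

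In the hlh-2-labelled libraries the log2 fold change of hlh-2 against L4440 was 0.025 ± 0.15 (SE, n = 3 and 2, edgeR adjusted p = 0.990). Its interval, from -0.29 to 0.34, corresponds to 0.816 to 1.27 times the control level, which leaves out a fall as large as that in the other RNAi group. In the lin-32-labelled libraries hlh-2 fell by 1.16 ± 0.15 on the log2 scale (SE, n = 3 and 2, edgeR adjusted p = 0.0041), to between 0.355 and 0.562 times the control level by the interval. This was among the lowest fold changes of the comparison, with 0.673% of tested genes lower still. Without L4440 replicate 2 the value was -1.19 and did not pass (edgeR adjusted p = 0.068). The direct comparison of the RNAi groups gave a log2 difference of 1.19 ± 0.14 (SE, n = 3 and 3, edgeR adjusted p = 0.0017), and hlh-2 passed it with any 1 library left out.

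The 3 lin-32-labelled libraries also differed among themselves in hlh-2. The highest, replicate 2, had 1.79 times the level of the lowest, replicate 3, and the chi-square per degree of freedom of their counts was 54.5. The corresponding value was 5.27 in the hlh-2-labelled libraries and 0.654 in L4440. As a coefficient of variation (SD over mean) the spread was 27.9% in the lin-32-labelled libraries. The median over 3008 genes with 15 to 60 CPM in those libraries was 4.17%, and 99.6% of them varied less than hlh-2. In L4440 and in the hlh-2-labelled libraries the coefficients of hlh-2 were 2.32% and 5.67%, beside medians of 3.43% and 3.87%.

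The atonal-related gene lin-32 (WBGene00003018) makes cells competent to become touch receptor, ray and other sensory neurons. It lies on chromosome X from 2229055 to 2230122, minus strand, with 3 exons of 619 bases in all and no overlapping gene. Its reads were few. It had 33 and 39 counts in L4440, 73, 114 and 67 in the hlh-2-labelled libraries, and 28, 24 and 23 in the lin-32-labelled libraries. The levels were 1.497 and 1.42 CPM in L4440, 2.41, 3.40 and 2.06 CPM in the hlh-2-labelled libraries, and 0.977, 0.678 and 0.764 CPM in the lin-32-labelled libraries. No 2 groups overlapped, and the hlh-2-labelled libraries were the highest and the lin-32-labelled libraries the lowest.

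For single libraries the counting error was wide. In L4440 replicate 1 the exact Poisson 95% interval of lin-32 was 1.03 to 2.102 CPM, and in the highest lin-32-labelled library it was 0.649 to 1.41 CPM. In the lin-32-labelled libraries the log2 fold change against L4440 was -0.86 ± 0.29 (SE, n = 3 and 2), with an interval of -1.49 to -0.23. The unadjusted edgeR p was 0.011 and the edgeR adjusted p 0.233, so that the difference did not pass. In the hlh-2-labelled libraries it was 0.85 ± 0.25 (SE, n = 3 and 2), with an interval of 0.32 to 1.39, an unadjusted edgeR p of 0.0045 and an edgeR adjusted p of 0.456. Without a filter on low counts both differences passed (edgeR adjusted p = 0.044 and 0.017). That setting also raised the calls over all genes, from 106 to 610 and from 29 to 223.

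Set against each other, the RNAi groups differed in lin-32 by 1.71 ± 0.23 on the log2 scale (SE, n = 3 and 3, edgeR adjusted p = 0.0067). The hlh-2-labelled libraries were 3.28-fold higher, with an interval of 2.32 to 4.63. Without lin-32-labelled replicate 2 the value was 1.60 (1.595, edgeR adjusted p = 0.053). The spread of lin-32 within the lin-32-labelled libraries was near counting error (chi-square per degree of freedom 0.917), unlike that of hlh-2, and that within the hlh-2-labelled libraries was larger (6.05). The replicate that stood highest in hlh-2 among the lin-32-labelled libraries, replicate 2, was the lowest of them in lin-32. The deposited counts give 1 number per gene, so reads from the stretch that a plasmid targets cannot be told from the rest of the transcript.

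Next in line are the genes related to vertebrate NeuroD and neurogenin. The NeuroD-related cnd-1 (WBGene00000561, chromosome III, 5240591 to 5244639, minus strand) acts early in the embryonic motor neuron lineages. It had 22 and 28 counts in L4440, 23, 35 and 35 in the hlh-2-labelled libraries, and 20, 19 and 25 in the lin-32-labelled libraries. That was 0.998 and 1.02 CPM, 0.759, 1.04 and 1.08 CPM, and 0.698, 0.537 and 0.830 CPM. The lin-32-labelled libraries were all below both controls but overlapped the hlh-2-labelled libraries. Against L4440 the log2 fold change was -0.56 ± 0.28 there (SE, edgeR adjusted p = 0.442) and -0.066 ± 0.27 in the hlh-2-labelled libraries (SE, edgeR adjusted p = 0.985).

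The neurogenin-related ngn-1 (WBGene00003595, chromosome IV, 2626062 to 2628271, minus strand) takes part in the fate of pharyngeal and head neurons. It was measured at 5.94 and 3.96 CPM in L4440, 3.76, 5.57 and 4.67 CPM in the hlh-2-labelled libraries, and 2.62, 4.89 and 2.72 CPM in the lin-32-labelled libraries. All 3 groups overlapped, since replicate 2 of the lin-32-labelled libraries lay above the lower control. The control libraries themselves differed by 1.501-fold, beyond counting error (chi-square per degree of freedom 9.95). The log2 fold change against L4440 was -0.50 ± 0.27 in the lin-32-labelled libraries (SE, edgeR adjusted p = 0.485), with an interval of -1.09 to 0.084. This became -0.20 with L4440 replicate 1 left out, -0.78 with L4440 replicate 2 left out and -0.87 without lin-32-labelled replicate 2. In the hlh-2-labelled libraries it was -0.065 ± 0.26 (SE, edgeR adjusted p = 0.985).

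In the direct comparison of the RNAi groups ngn-1 was 0.44 ± 0.24 higher on the log2 scale in the hlh-2-labelled libraries, which did not pass (SE, edgeR adjusted p = 0.703). Leaving out single libraries this ran from 0.28, without lin-32-labelled replicate 1, to 0.81, without lin-32-labelled replicate 2. With the replicate number as a block in a fit of the 6 RNAi libraries alone, the value was 0.46 and the edgeR adjusted p 0.048. This setting was added after the data were seen, and it called 386 genes over all, against 58 in the main fit. In the unblocked comparison of the RNAi groups cnd-1 had a log2 difference of 0.50 ± 0.24 (SE, edgeR adjusted p = 0.653).

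The achaete-scute relatives are hlh-3 and hlh-14. HLH-3 serves the differentiation of the egg-laying HSN neurons, and HLH-14 promotes neuroblast fate in embryonic lineages that include that of the HSN. The hlh-3 gene (WBGene00001950, chromosome II, 9086608 to 9087908, plus strand) had 3.22 and 3.63 CPM in L4440, 3.17, 3.96 and 3.16 CPM in the hlh-2-labelled libraries, and 3.03, 3.45 and 4.25 CPM in the lin-32-labelled libraries. The groups overlapped throughout. Its log2 fold changes against L4440 were -1.2e-04 ± 0.17 in the hlh-2-labelled libraries and 0.058 ± 0.18 in the lin-32-labelled libraries (SE, edgeR adjusted p = 0.9997 and 0.931). The intervals, -0.38 to 0.38 and -0.32 to 0.44, correspond to 0.769 to 1.3 and 0.799 to 1.36 times the control level.

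The hlh-14 gene (WBGene00001958, chromosome II, 5737785 to 5738895, minus strand) had 2.09 and 2.29 CPM in L4440. It had 2.34, 3.31 and 3.04 CPM in the hlh-2-labelled libraries and 2.16, 2.80 and 2.86 CPM in the lin-32-labelled libraries. The hlh-2-labelled libraries were all above the controls, and the lin-32-labelled libraries overlapped both other groups. The log2 fold changes were 0.40 ± 0.20 and 0.25 ± 0.20 (SE, edgeR adjusted p = 0.755 and 0.657), and neither passed. Between the RNAi groups the difference was 0.15 ± 0.16 for hlh-14 and -0.058 ± 0.15 for hlh-3 (log2, SE, edgeR adjusted p = 0.886 and 0.969).

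The last gene, hlh-8 (WBGene00001953, chromosome X, 8116457 to 8120351, plus strand), is not proneural: it encodes the worm's Twist protein, which patterns the postembryonic mesoderm with HLH-2 as a partner. It had only 6 to 19 counts per library, 0.408 and 0.581 CPM in L4440, 0.330, 0.358 and 0.584 CPM in the hlh-2-labelled libraries, and 0.209, 0.537 and 0.365 CPM in the lin-32-labelled libraries. The groups overlapped, and the intervals of the log2 fold changes against L4440, -1.17 to 0.69 and -1.35 to 0.55, correspond to 0.444 to 1.62 and 0.392 to 1.47 times the control level, so that only larger changes could be detected at this depth. The edgeR adjusted p-values were 0.963 and 0.772, and 0.963 between the RNAi groups (log2 difference 0.16 ± 0.38, SE). Of its exons, 38 bases are shared with C02B8.12 on the other strand, which had 14 to 34 counts, and the library kit does not mark strand.

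**Figure D2:**
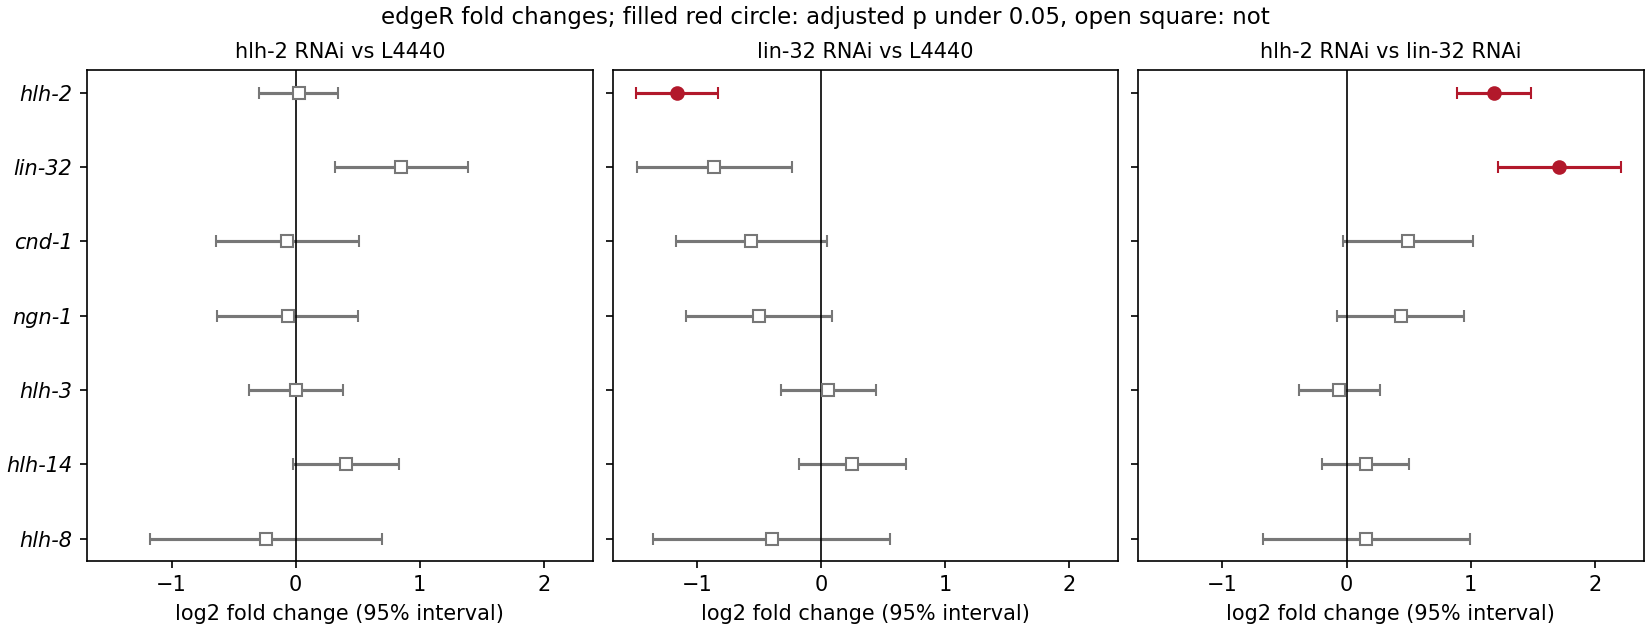
Log2 fold change of each gene (x axis) with its 95% interval in the 3 comparisons of labelled libraries. Filled red circles passed the edgeR test at an adjusted p under 0.05 and open squares did not: hlh-2 at -1.16 against L4440, and hlh-2 at 1.19 and lin-32 at 1.71 between the RNAi groups.

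Counted together, 0 of the 7 genes passed between the hlh-2-labelled libraries and L4440, where 0.203% of all tested genes passed edgeR (0.049% higher and 0.154% lower). At an unadjusted p under 0.05 there was 1, lin-32, beside 6.78% of all genes, and DESeq2 and limma-voom called 0. DESeq2 gave no adjusted p for cnd-1 and hlh-8 there. Between the lin-32-labelled libraries and L4440, 1 of 7 passed, hlh-2, which was lower, beside 0.743% of all genes in either direction and 0.533% lower. Both hlh-2 and lin-32 had an unadjusted p under 0.05 there, 2 of 7, beside 12.6%. Between the RNAi groups 2 of 7 passed, both higher in the hlh-2-labelled libraries, beside 0.406% in either direction and 0.294% higher. The same 2 had an unadjusted p under 0.05, beside 7.97% of all genes. DESeq2 and limma-voom called 1 and 2 in these comparisons. Since 2 of the 7 are the targeted genes, these shares are no result about proneural genes as a class.

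Libraries did not overlap for 2 of 7 genes in the first comparison (lin-32 and hlh-14, both higher), where 24.1% of all genes did not overlap and 11.9% lay higher. In the second it was 3 of 7 (hlh-2, lin-32 and cnd-1, all lower), beside 29.8% of all genes and 15.4% lower. Between the RNAi groups it was 2 of 7, both higher, beside 13.7% of all genes, 6.81% higher and 6.87% lower. The median log2 fold change of the 7 genes was -1.2e-04, -0.50 and 0.44 in the 3 comparisons, while that of all tested genes was -6.8e-04, 0.0015 and -0.0015. Both comparisons with L4440 use the same 2 control libraries. Side by side, 5 of 7 log2 fold changes were below 0 in the lin-32-labelled libraries, where 49.4% of all genes were, and 4 of 7 in the hlh-2-labelled libraries, where 50.3% were. Between the RNAi groups 1 of 7 was below 0, beside 50.7%.

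The balance between the E protein transcript and those of its 6 partners was taken as a ratio of RPKM. The ratio of hlh-2 to the sum of the 6 was 1.66 and 1.79 in L4440, 1.74, 1.25 and 1.70 in the hlh-2-labelled libraries, and 1.11, 0.990 and 0.623 in the lin-32-labelled libraries. The last group lay below all other libraries. The sum of the partners was 18.3 and 16.5 RPKM in L4440, 16.9 to 23.5 in the hlh-2-labelled libraries, and 12.5 to 16.9 in the lin-32-labelled libraries. In the partner sum lin-32 took 13.2% and 13.9% in L4440, 17.5% to 23.3% in the hlh-2-labelled libraries, and 6.50% to 12.6% in the lin-32-labelled libraries.

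Other bHLH genes of the worm were looked at as a surrounding family, in 4 lists with 33 genes, of which 19 had enough reads to be tested. The 14 without enough reads had 0 to 14 counts in a library, among them the achaete-scute relatives hlh-4 and hlh-19. With edgeR 0 of the 19 passed in each of the 3 comparisons. At an unadjusted p under 0.05 there were 1, 4 and 3 of 19, beside 6.78%, 12.6% and 7.97% of all genes, and DESeq2 and limma-voom called 0. In the blocked fit of the 6 RNAi libraries 18 of these genes were tested, and 2 passed between the RNAi groups. They were hlh-1 at 0.54 (log2, edgeR adjusted p = 0.013) and mxl-2 at -0.16 (log2, edgeR adjusted p = 0.041). That fit called 386 genes over all, against 58 in the main fit. In the main fit the medians of the 19 genes were 0.035, 0.021 and 0.010 (log2) in the hlh-2-labelled libraries, in the lin-32-labelled libraries and between the RNAi groups.

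Among the class II genes outside the 7, 4 of 13 were tested: hlh-1, hlh-6, hlh-16 and hnd-1. In the lin-32-labelled libraries all 4 had log2 fold changes below 0, with a median of -0.40, where 49.4% of all genes were below 0. In this comparison the libraries of 2 of the 4 did not overlap, beside 29.8% of all genes and 15.4% lower. The MyoD relative hlh-1, which acts in body wall muscle, had 2.95 and 4.50 CPM in L4440 and 2.34, 2.83 and 2.76 CPM in the lin-32-labelled libraries, with no overlap. Against L4440 its log2 fold change was -0.51 ± 0.19 (SE, edgeR adjusted p = 0.285), and hlh-16 had -0.63 ± 0.32 (SE, edgeR adjusted p = 0.455). The hlh-1 value moved to -0.15 with L4440 replicate 2 left out and to -0.77 with replicate 1 left out.

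The remaining classes are not typical partners of the E protein. The REF-1 and Hairy-related genes, mostly repressors, had medians of -0.058, 0.021 and -0.041 in the 3 comparisons over 3 tested genes. Of these ref-1, a target of Notch signalling, stood at -0.24 ± 0.13 in the lin-32-labelled libraries (log2, SE, edgeR adjusted p = 0.482), and hlh-27 at 0.26 ± 0.49. The hlh-27 value is uncertain, as close relatives such as hlh-25 may share its reads and how such reads were counted is not stated. The 8 leucine zipper bHLH genes, of the Myc, Max and SREBP kind, had medians of 0.043, 0.088 and -0.035. The smallest p-values here were those of hlh-11, at 0.20 ± 0.067 in the lin-32-labelled libraries (log2, SE, edgeR adjusted p = 0.249), and mxl-2, at -0.16 ± 0.051 between the RNAi groups (log2, SE, edgeR adjusted p = 0.366). The PAS domain genes, sensors of oxygen and small molecules, had medians of 0.12, 0.092 and 0.053 over 4 genes. Their aryl hydrocarbon receptor gene ahr-1 stood at -0.72 ± 0.29 in the lin-32-labelled libraries (log2, SE, edgeR adjusted p = 0.331), and its partner gene aha-1 at 0.23 ± 0.077 in the hlh-2-labelled libraries (log2, SE, edgeR adjusted p = 0.568).

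**Figure D3:**
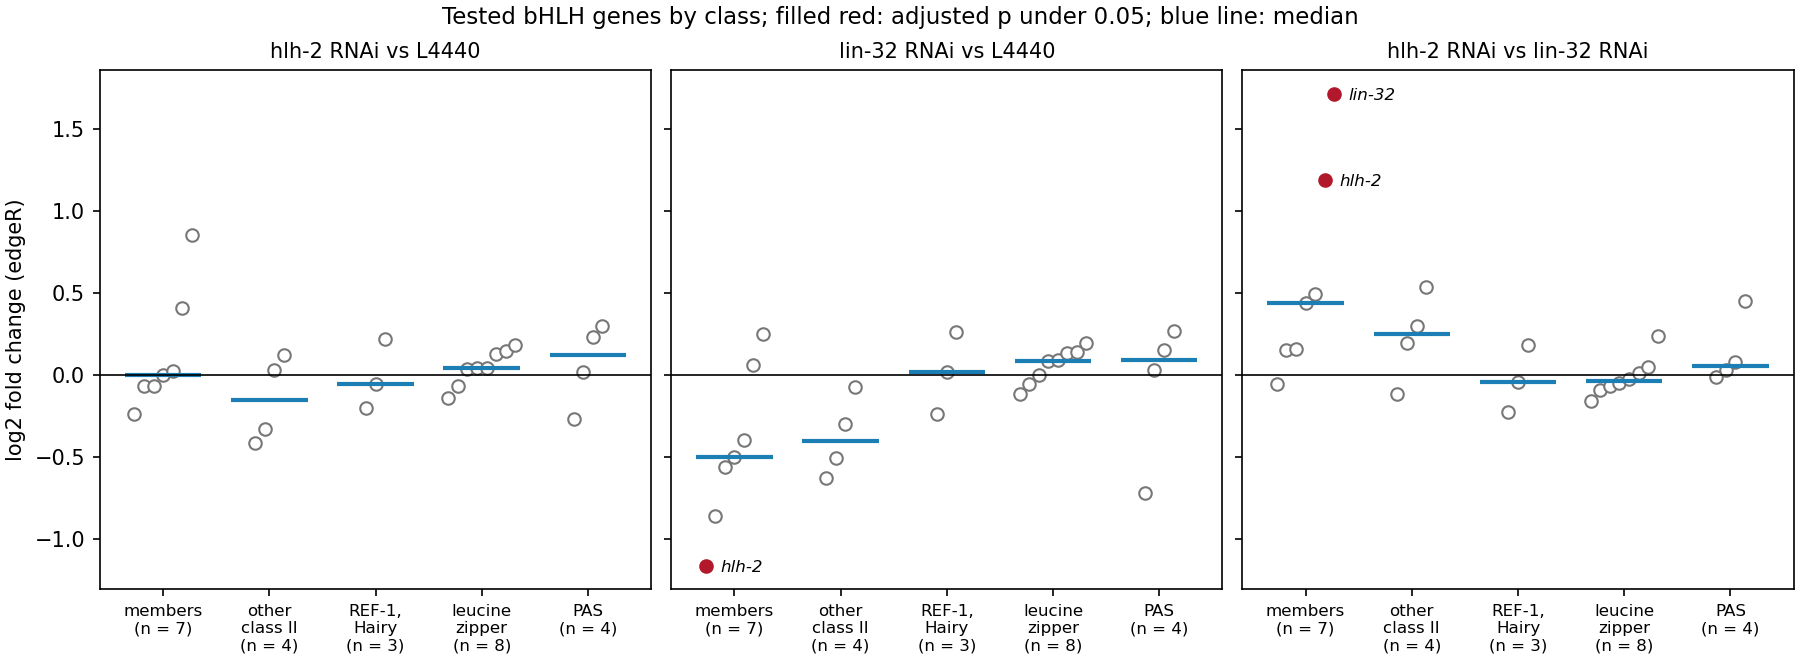
Log2 fold change (y axis) of every tested bHLH gene by class (x axis, with the number of genes) in the 3 comparisons of labelled libraries. Filled red points passed the edgeR test, open ones did not, and blue lines are medians. Apart from hlh-2 and lin-32 no bHLH gene passed in this fit. In the lin-32-labelled libraries the median is -0.50 for the 7 members, hlh-2 included, and -0.40 for the other class II genes.

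Genes reported to act downstream of these factors in the worm were listed as well, 10 in all, of which 8 were tested. The list was chosen with earlier results of these data known, so its counts are no test of these genes as a set. In the lin-32-labelled libraries 1 of 8 passed against L4440, egl-46, beside 0.743% of all genes, and the median was -0.21. The gene egl-46, whose zinc finger protein serves the differentiation of touch receptor and other neurons, had 8.25 and 5.70 CPM in L4440, 4.88, 5.57 and 6.24 CPM in the hlh-2-labelled libraries, and 1.22, 1.33 and 0.996 CPM in the lin-32-labelled libraries. It was the largest fall among the 8, at -2.54 ± 0.20 (log2, SE, edgeR adjusted p = 1.1e-04). It also passed between the RNAi groups, at 2.23 ± 0.18 (log2, SE, edgeR adjusted p = 2.3e-04), and both calls held with any 1 library left out.

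The Delta-like Notch ligand gene lag-2, which HLH-2 activates in the anchor cell, had 3.76 and 2.51 CPM in L4440, 2.38, 3.10 and 2.24 CPM in the hlh-2-labelled libraries, and 0.872, 1.84 and 1.33 CPM in the lin-32-labelled libraries. The last group lay below every other library. Its log2 fold change of -1.18 ± 0.28 did not pass edgeR (SE, adjusted p = 0.080), and DESeq2 called it (adjusted p = 0.016). Set between the RNAi groups lag-2 stood at 0.91 ± 0.25 (log2, SE, edgeR adjusted p = 0.217), and in the blocked fit of the 6 RNAi libraries at 0.93 (edgeR adjusted p = 0.0019). The POU homeobox gene unc-86, whose expression in touch cell lineages needs lin-32, had 1.497 and 1.34 CPM in L4440, 1.39, 1.401 and 1.44 CPM in the hlh-2-labelled libraries, and 0.872, 1.02 and 0.631 CPM in the lin-32-labelled libraries. Here too the last group lay below every other library, and the log2 fold change of -0.74 ± 0.24 did not pass (SE, edgeR adjusted p = 0.215). Libraries of 5 of the 8 genes did not overlap between the lin-32-labelled libraries and L4440, beside 29.8% of all genes. Between the RNAi groups it was 4 of 8, beside 13.7%.

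The remaining 5 tested genes had smaller log2 fold changes against L4440 in the lin-32-labelled libraries. At an unadjusted edgeR p under 0.05 there were 3 of all 8 genes in that comparison, beside 12.6% of all tested genes. Between the RNAi groups it was 4 of 8, beside 7.97%. The LIM homeobox gene mec-3, which unc-86 activates in touch receptor neurons, stood at 0.12 ± 0.36, and the EGF-like gene lin-3 of the anchor cell at 0.025 ± 0.037 (log2 against L4440 in the lin-32-labelled libraries, SE). The cell death gene egl-1 had 0.21 ± 0.29, and the mesodermal genes egl-15 and ceh-24 had 0.28 ± 0.17 and -0.45 ± 0.54. In the hlh-2-labelled libraries 0 of 8 passed edgeR, 0 had an unadjusted p under 0.05, DESeq2 and limma-voom called 0, and the median was 0.056.

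Tissue and stage markers, in lists also chosen with earlier results known, were set beside these values. Their part in the results was not tested. Of 26 tested embryonic cell fate genes, 23 had log2 fold changes below 0 in the lin-32-labelled libraries, with a median of -0.11, beside 49.4% of all genes, and none passed edgeR. It was 16 of 26 in the hlh-2-labelled libraries, beside 50.3%, and 5 of 26 between the RNAi groups, beside 50.7%. In the lin-32-labelled libraries 7 of 26 had an unadjusted p under 0.05, beside 12.6%, DESeq2 called 1, the Distal-less homeobox gene ceh-43, and limma-voom called 0. The edgeR value of ceh-43 was -0.72 ± 0.17 (log2, SE, adjusted p = 0.080), and with the replicate block it was -0.78 (edgeR adjusted p = 0.018). It also passed without hlh-2-labelled replicate 1 (edgeR adjusted p = 0.043). Between the RNAi groups DESeq2 called ceh-43 at 0.54 (log2, adjusted p = 0.044). The blocked fit of the 6 RNAi libraries called ceh-43 at 0.55 and unc-120 at 0.36 there (log2, edgeR adjusted p = 2.7e-04 and 0.032). Summed, the 27 embryonic genes ran from 561 to 567 CPM in L4440, from 535 to 586 CPM in the hlh-2-labelled libraries and from 525 to 565 CPM in the lin-32-labelled libraries.

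Of 10 epidermis genes 3 fell in the lin-32-labelled libraries, the cuticle collagens dpy-5, dpy-13 and rol-6, and none rose, beside 0.743% of all genes called and 0.533% called lower. Each rested on 19 to 31 counts in a control library and 0 to 8 in a lin-32-labelled library. Their calls were lost without either control (edgeR adjusted p from 0.105 to 0.143) and without a lin-32-labelled library, replicate 2 or 3 for dpy-13 (0.062 and 0.057), replicate 3 for dpy-5 (0.056) and replicate 2 for rol-6 (0.058). As for the RNAi groups against each other, rol-6 passed (edgeR adjusted p = 0.040), a call lost without any 1 library but replicate 1 of the lin-32-labelled libraries (edgeR adjusted p from 0.052 to 0.210). With the replicate block dpy-5 passed there as well (edgeR adjusted p = 0.029). DESeq2 called 3 of 10 there, rol-6, dpy-5 and dpy-13 (adjusted p = 0.016 for dpy-5 and 0.019 for dpy-13), and the blocked fit of the 6 RNAi libraries called these and dpy-7 (edgeR adjusted p = 0.0038 for dpy-13 and 0.012 for dpy-7). The epidermis genes summed to 153 and 184 CPM in L4440, 140 to 173 CPM in the hlh-2-labelled libraries and 152 to 172 CPM in the lin-32-labelled libraries. Among 12 muscle genes the myosin gene myo-3 was higher in the hlh-2-labelled libraries than in the lin-32-labelled libraries, by 0.24 (log2, edgeR adjusted p = 0.031). That call was lost with any 1 library left out (edgeR adjusted p from 0.050 to 0.163). No pan-neuronal, oocyte, sperm or intestine gene passed the main edgeR fit in any comparison. At an unadjusted p under 0.05 there were 1, 0 and 0 of 20 pan-neuronal genes in the 3 comparisons. It was 1, 1 and 2 of 14 oocyte genes, 0 of 4 sperm genes in each, and 2, 3 and 1 of 9 intestine genes. Over all genes the shares were 6.78%, 12.6% and 7.97%. The intestine gene mtl-2 passed against L4440 in 1 of 15 other settings in the hlh-2-labelled libraries and in 2 of 15 in the lin-32-labelled libraries (lowest edgeR adjusted p = 0.021 and 0.014). DESeq2 called 1 oocyte gene between the RNAi groups, and DESeq2 and limma-voom each called 1 intestine gene, asp-1, in the hlh-2-labelled libraries. With the replicate block asp-1 passed in both RNAi groups against L4440, at -0.35 and -0.23 (log2, edgeR adjusted p = 0.0043 and 0.024).

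Across the 8 libraries the log2 CPM of hlh-2 and lin-32 had a Pearson correlation of 0.792. It is a description of libraries that fall into 3 labelled groups and share their scaling. Of 8375 genes with a symbol and at least 5 CPM, the 5 most like hlh-2 were byn-1, dcr-1, klp-11, Y53C12B.1 and unc-82, with correlations of 0.967 to 0.953. Their own differences were small: in the lin-32-labelled libraries klp-11, a kinesin gene, stood at -0.35 ± 0.11 and dcr-1, the Dicer gene, at -0.057 ± 0.031 (log2, SE, edgeR adjusted p = 0.189 and 0.498). The 5 most like lin-32 were pdfr-1, K09F5.6, mog-5, unc-16 and plrg-1, with correlations of 0.938 to 0.913. None of the 10 passed against L4440 in these libraries.

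**Figure D4:**
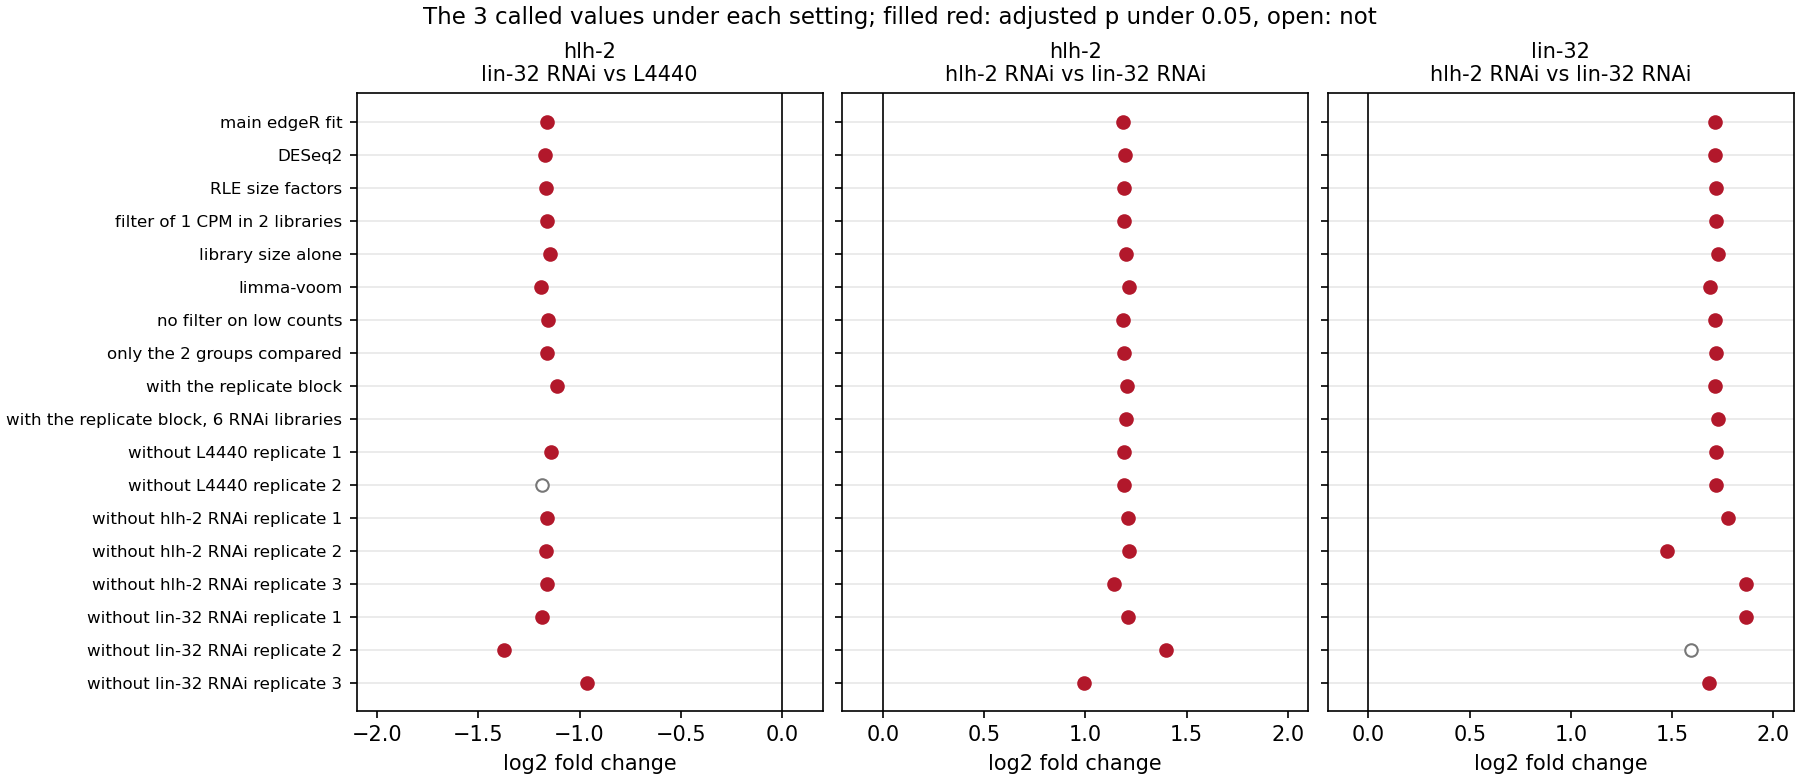
Log2 fold change (x axis) of the 3 values that passed, hlh-2 against L4440 in the lin-32-labelled libraries and hlh-2 and lin-32 between the RNAi groups, under each other way of processing (y axis). Filled red points passed the test and open ones did not. The hlh-2 call of the first panel is lost without L4440 replicate 2, and the lin-32 call without replicate 2 of the lin-32-labelled libraries.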

How the data were processed

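RNA of whole nematodes was sequenced in 8 libraries. Per the labels' protocols, QIAzol served for RNA isolation and the TruSeq RNA v2 kit (no strand marking) for library preparation. Per the submitters' processing notes, the build was WBcel235 and the tools included featureCounts 1.4.6-p4, TopHat2 2.1.0 and bcl2fastq 1.8.4. How multi-mapping reads were counted, and on which annotation, is not stated there. The authors deposited raw read counts per gene, 1 column per library.

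Symbols came from a WormBase name table (43693 of 46748 IDs) and exons from WBcel235 annotation release 115. In R 4.3.3, edgeR 4.0.16 kept 14272 genes by filterByExpr, scaled by TMM and fitted all 8 libraries by group (glmQLFit, glmQLFTest), with Benjamini-Hochberg adjustment over all genes. The SE is the fold change over the root of F. Alternatives used DESeq2 1.42.0 and limma 3.58.1 (voom), other scalings and filters, only the compared groups, a replicate block, and each library left out. Members and lists were chosen with earlier results of these data known. The 7 members are always named. Of each list, the rule picked members that passed (up to 4 a comparison by smallest p) or else the 2 with the smallest p. Its pan-neuronal, oocyte and sperm picks are not named in the text. Other list members in the text (lag-2, unc-86, mec-3, lin-3, egl-1, egl-15, ceh-24, hlh-6, hnd-1, hlh-4, hlh-19, hlh-25, dpy-7, unc-120) were named after their values were seen. For hlh-2 and lin-32 the 5 genes with the highest correlation of log2 CPM were named.

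Replicate numbers were checked for pairing. Deviations from the group mean were correlated across genes between the RNAi groups. They gave 0.265, 0.194 and 0.191 for equal numbers, each above every pair of unequal numbers. With 3 libraries a group few pairings are possible, so this check cannot settle whether the numbers pair. The blocked fits assume that they do, and the labels state no shared batch. The L4440 libraries were not part of this check, so the block in all 8 libraries assumes that their numbers pair too. Values are from the fit without a block, the main design, and blocked values stand beside those whose call they change. Intervals from counts cover counting error only.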

Additional observations from a re-analysis of the deposited data

How the results depend on the processing

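For the 7 genes, 21 log2 fold changes were recomputed under the alternatives that tested them, 340 values in all. Of these 314 kept their direction and side of the threshold. DESeq2 gave no adjusted p for cnd-1 and hlh-8 in the hlh-2-labelled libraries against L4440, and both were counted as not passed. Calls changed in 5: hlh-2 in the lin-32-labelled libraries without L4440 replicate 2 (-1.19), lin-32 between the RNAi groups without lin-32-labelled replicate 2 (1.595), ngn-1 there with a replicate block in the 6 RNAi libraries (0.46), and, without a filter on low counts, lin-32 against L4440 in both RNAi groups (0.86 and -0.86). Leaving out single libraries, calls among the 7 ran from 0 to 0 for the hlh-2-labelled libraries against L4440, from 0 to 1 for the lin-32-labelled libraries and from 1 to 2 between the RNAi groups. Without a filter they were 1 and 2 against L4440.

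Signs turned in 21 values of 8 small, uncalled differences. For hlh-3 in the hlh-2-labelled libraries, main value -1.2e-04, they were 0.0020 with DESeq2, 0.0011 with RLE size factors, 0.0016 with a filter of 1 CPM in 2 libraries, 0.026 with library size alone, 0.0037 without a filter and 1.0e-04 with only the 2 groups. Leaving out libraries, the ranges there were -0.12 to 0.097 for hlh-3, -0.022 to 0.050 for hlh-2, -0.15 to 0.073 for cnd-1, -0.34 to 0.24 for ngn-1 and -0.54 to 0.060 for hlh-8. They were -0.080 to 0.16 for hlh-3 in the lin-32-labelled libraries, and -0.18 to 0.080 for hlh-3 and -0.14 to 0.55 for hlh-8 between the RNAi groups. The cause was not tested. With a filter of 1 CPM hlh-8 is not tested.

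Over all genes, calls numbered 29, 106 and 58 in the 3 comparisons. They were 49, 176 and 91 with DESeq2, 223, 610 and 342 without a filter, and 72, 350 and 132 with the replicate block, or 386 between the RNAi groups in their own blocked fit; the block changed no call of the 7 other than that of ngn-1 in the latter fit. Among the lists that fit also called hlh-1, mxl-2, lag-2, ceh-43, unc-120, dpy-5, dpy-7 and dpy-13, and the block in all 8 libraries called ceh-43, dpy-5 and asp-1; neither changed another call. Leaving out single libraries they ran from 3 to 31, from 17 to 157 and from 25 to 93. Counting error is wide for lin-32, with 23 to 114 counts, and hlh-8, with 6 to 19. For lin-32 the hlh-2-labelled libraries also differed among themselves beyond it (chi-square per degree of freedom 6.05). Why differences of these genes did not pass was not tested.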
